A study of Rattus norvegicus with 50 samples.

Results

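Lung gene expression after 9 days of printer exposure was compared between 5 lung samples of rats that inhaled printer-emitted particles (PEPs) and 5 of rats that inhaled air cleaned by a high efficiency particulate air (HEPA) filter. The members are all lungs whose title gives the group PEP_D9 or Air_D9, 10 of the 50 lungs in the series, which also holds lungs of days 1, 5 and 21 and day-21 lungs of rats with an implant. All were male Sprague-Dawley rats, 9 weeks old when bought and older when the lungs were taken, and none of the day-9 titles names an implant. PEP rats breathed, with their whole bodies, the particles and gases given off by the running laser printer B1 for 5 hours a day, and Air rats sat in like chambers with filtered air. Printer gases reached the PEP rats with the particles, so effects of the gases and of the particles cannot be told apart. Whether the 10 arrays stand for 10 different rats is not stated in the labels, and the p-values therefore describe only how much these lungs varied. The study ran its exposures in more than 1 calendar year and the labels tie no lung to a year, so the part of that batch was not tested. The tissue label names lung, whereas the free-text description of each names blood, and lung markers (below) were bright.

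An inhaled particle meets the epithelium of the airways and alveoli and the macrophages that patrol it, and these cells can call in leukocytes by releasing chemokines. Combustion-like emissions are known to activate the aryl hydrocarbon receptor, which switches on Cyp1a1, and the transcription factor NRF2, which switches on antioxidant enzymes. The lung also makes its own cholesterol, part of which enters surfactant, and the enzymes of that pathway are controlled together by the transcription factor SREBP2 with the help of the CCAAT-binding factor NF-Y. A circadian clock runs in lung cells, in which CLOCK and BMAL1 drive the Per, Cry and Dbp genes and are in turn held back by the PER and CRY proteins. The comparison asks which of these transcripts differed between exposed and control lungs at day 9.

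Promoter sequence is shown for Idi1 and Msmo1 of cholesterol synthesis and for Per2 of the clock. Sqle, whose difference was larger than that of Msmo1, matched no promoter. Per2 had the largest difference of the clock list, while Cry2 and Per3, which are not shown, had smaller p-values. All sequences are from RefSeq on the rat build GRCr8 and cover the 250 bases that precede the annotated start of the gene, written 5′ to 3′ on the coding strand. Capitals mark CCAAT, or its reverse complement ATTGG, in the first 2, and TTATGTAA, a form of the D-box bound by DBP and its antagonist NFIL3, in the third.
Idi1, chr17:66547525-66547774, minus strand: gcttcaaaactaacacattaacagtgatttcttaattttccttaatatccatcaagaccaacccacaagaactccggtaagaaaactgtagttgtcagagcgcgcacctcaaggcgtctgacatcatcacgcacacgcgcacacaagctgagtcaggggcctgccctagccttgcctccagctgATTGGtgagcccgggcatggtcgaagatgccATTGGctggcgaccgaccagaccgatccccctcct
Msmo1, chr16:29746863-29747112, plus strand: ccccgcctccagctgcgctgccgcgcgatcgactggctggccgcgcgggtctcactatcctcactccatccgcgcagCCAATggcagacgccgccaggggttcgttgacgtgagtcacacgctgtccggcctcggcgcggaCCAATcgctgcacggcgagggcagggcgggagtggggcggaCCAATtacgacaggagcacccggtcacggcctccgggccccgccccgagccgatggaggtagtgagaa
Per2, chr9:99496994-99497243, minus strand: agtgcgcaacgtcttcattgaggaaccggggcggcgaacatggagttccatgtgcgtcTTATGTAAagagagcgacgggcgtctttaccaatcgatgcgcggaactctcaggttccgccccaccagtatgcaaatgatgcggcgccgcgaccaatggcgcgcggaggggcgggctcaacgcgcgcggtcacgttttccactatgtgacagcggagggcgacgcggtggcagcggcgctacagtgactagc
Of the 8 cholesterol synthesis genes tested, 7 matched the promoter table, and CCAAT on either strand lay in 6 of these, Dhcr7 being the one without. The same letters were found in 34.3% of 27457 rat promoters of this length. TTATGTAA on either strand was found in 0.816% of all promoters and in 1 of 10 clock gene promoters matched, that of Per2. The E-box CACGTG, bound by CLOCK with BMAL1, lay in 5.79% of all promoters and in 1 of the 10. The motifs do not overlap one another, and a match is a description of the sequence only.

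Medians of the 10 arrays ran from 4.92 to 5.06 (log2, as deposited), and the number of arrays per group limits the precision. Defining markers of lung were bright in every one. The mean of 4 type 2 cell markers, among them the surfactant genes, was 12.4 to 12.6 in both groups, and that of 4 type 1 cell markers was 11.5 to 11.7 in Air and 11.4 to 11.7 in PEP lungs. Markers of other tissues varied more. Heart muscle genes had list means of 6.05 in Air replicate 3, 6.93 in Air replicate 4 and 6.64 in PEP replicate 3, against 3.83 to 4.91 in the other 7 lungs. Hepatocyte and adipocyte markers stayed low, with means of 3.12 to 3.62 and 3.45 to 3.81.

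A total of 8202 genes passed a filter on variance over the 50 arrays and were tested by limma. At an adjusted p below 0.05, 0 of them were called (0% of those tested), and the smallest adjusted p was 0.421. Robust moderation also called 0. At an unadjusted p below 0.05 there were 422 genes, 199 higher in PEP lungs (2.43%) and 223 lower (2.72%). Differences were small. The log2 difference, PEP minus Air, lay within 0.25 of 0 in 82.2% of the tested genes, and its median over all of them was 0.000111. The median standard error (SE) of a single gene was 0.172, so that a 95% interval typically reached 0.346 to either side.

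Because the study chose genes by a 1.5-fold difference, that count was also taken, whatever the p. It gave 50 genes, 26 higher (0.317% of those tested) and 24 lower (0.293%) in PEP lungs, of which 17 and 14 had an unadjusted p below 0.05. Centring each array on its median turned the split into 36 higher and 16 lower. Leaving out single lungs raised the count to 85, 93, 78 and 90 without Air replicates 1, 2, 3 and 5, and to 80, 92 and 85 without PEP replicates 2, 3 and 4. A mean level under 5 on the log2 scale was found in 30 of the 50, a share close to the 57.6% of all tested genes. A standard deviation over 0.5 in at least 1 group was found in 29 of the 50 and in 10.6% of all tested genes. Olfactory, vomeronasal and trace amine receptor genes, which are hardly expressed in lung, made up 10 of the 50 (20%) and 13.6% of all tested genes. The 5 PEP and 5 Air values of a gene did not overlap at all in 24 genes with PEP higher (0.293%) and 34 with PEP lower (0.415%).

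**Figure D1:**
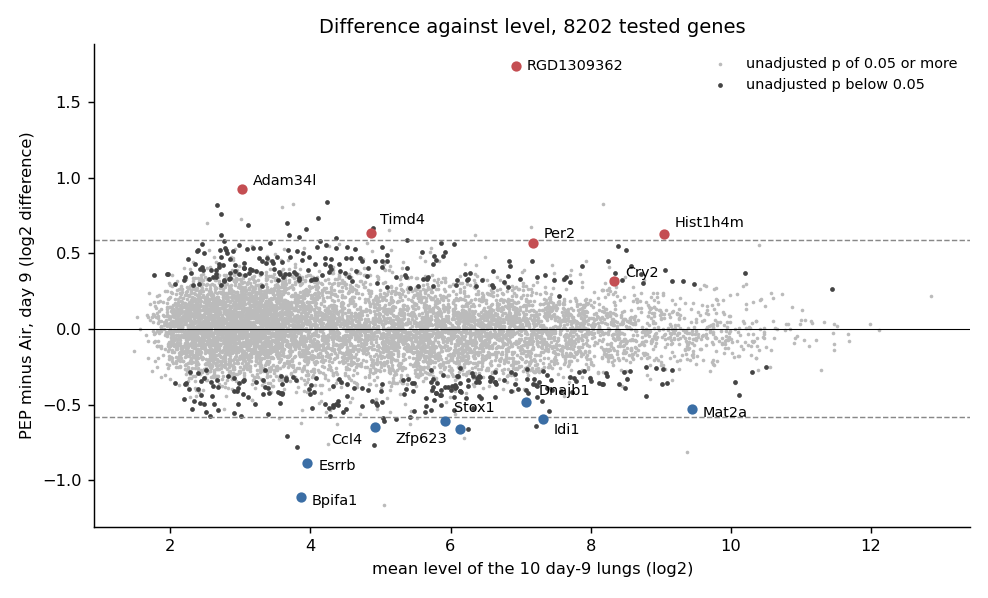
Each point is 1 of the 8202 tested genes, with its mean level over the 10 day-9 lungs (log2) on the x axis and the PEP minus Air log2 difference on the y axis. Dashed lines mark 1.5-fold, dark points an unadjusted p below 0.05, and coloured points are genes named in the text. Most points lie close to 0, and 30 of the 50 genes beyond the dashed lines have a level under 5.

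Cholesterol synthesis genes lay mostly below their Air values in PEP lungs. Of 8 tested members 7 had negative differences, 2 of them at an unadjusted p below 0.05 and 0 at an adjusted one, and the list median was -0.15 against 0.000111 over all tested genes. When single lungs were left out the median ran from -0.24 (without PEP replicate 3) to -0.099 (without Air replicate 4). A further 6 named members did not vary enough to be tested, and 7 of the 21 listed genes were not named here. Hmgcs1, which the study tabulated beside Idi1 at day 9, was among those not named and could not be examined. Idi1, the isomerase that turns isopentenyl into dimethylallyl diphosphate, led the list. Its levels were 7.38, 7.74, 7.66, 7.87 and 7.37 in the Air lungs and 6.80, 6.81, 7.54, 7.20 and 6.81 in the PEP lungs. All 5 PEP values were below the Air mean, though PEP replicate 3 stood inside the Air range. The log2 difference was -0.60 ± 0.18 (SE, 95% interval -0.95 to -0.25, limma adjusted p = 0.607), which is 1.51-fold.

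Sqle, the squalene epoxidase, had levels of 7.66, 7.84, 8.09, 8.36 and 7.83 in Air and 7.73, 7.28, 8.01, 7.61 and 7.49 in PEP lungs. The groups overlapped by more than in Idi1, and the difference was -0.34 ± 0.15 (adjusted p = 0.924), or -0.215 without Air replicate 4. Msmo1, the sterol C4-methyl oxidase, was at 8.99, 9.10, 8.91, 9.21 and 8.61 in Air and 8.76, 8.90, 8.85, 8.75 and 8.42 in PEP lungs. Both here and in Sc5d, the lathosterol desaturase, every PEP lung was below the Air mean, with differences of -0.24 ± 0.13 and -0.18 ± 0.12. The other tested members were closer to 0, namely Nsdhl at -0.10 ± 0.13, Dhcr7 at -0.11 ± 0.15, Hsd17b7 at -0.10 ± 0.17 and Tm7sf2 at 0.04 ± 0.14. Among genes of sterol uptake, export and SREBP control, 3 of 13 named members were variable enough to test, and all 3 lay between -0.10 and -0.03. The study tabulated Idi1 from these same lungs, so its place at the head of the list is no independent evidence.

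Clock genes had differences of both signs. Of 11 tested members 6 were positive and 5 negative, with a list median of 0.10 that was -0.05 without PEP replicate 5. Per2, Per3, Cry2 and Dbp, which CLOCK and BMAL1 drive, were among the positive ones. Per1, which they also drive, was among the negative ones, as were Clock, Bmal1 and Npas2. Cry2, which encodes a repressor of the loop, had levels of 8.04, 8.15, 8.15, 8.12 and 8.43 in Air and 8.41, 8.58, 8.37, 8.42 and 8.70 in PEP lungs. Only Air replicate 5 reached into the PEP range (difference 0.32 ± 0.11, adjusted p = 0.889). Per3, of the repressor family of Per genes, was at 7.76, 7.95, 7.83, 8.11 and 8.41 in Air and 8.26, 8.42, 8.30, 8.59 and 8.79 in PEP lungs, again with only Air replicate 5 inside the PEP range (0.45 ± 0.22, adjusted p = 0.924). These 2 genes had an unadjusted p below 0.05. Per2, whose D-box is shown above, was at 6.76, 6.41, 6.69, 6.95 and 7.65 in Air and 7.33, 7.24, 7.72, 7.18 and 7.78 in PEP lungs (0.57 ± 0.30, adjusted p = 0.924).

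Dbp, the output transcription factor, spread over the widest range of the 4. Its levels were 9.25, 9.81, 10.1, 10.5 and 11 in Air and 10.2, 10.5, 10.6, 11.1 and 11.1 in PEP lungs, a difference of 0.56 ± 0.34 (adjusted p = 0.959). Bmal1 ran the other way, at 7.99, 7.59, 7.56, 7.20 and 6.57 in Air and 7.38, 7.35, 7.10, 6.86 and 6.36 in PEP lungs (-0.35 ± 0.31). Clock was at -0.21 ± 0.12, Npas2, a CLOCK homologue, at -0.29 ± 0.24, Nfil3 at -0.25 ± 0.18 and Per1 at -0.18 ± 0.22. Bhlhe40 and Cry1 were at 0.16 ± 0.19 and 0.10 ± 0.16. Across the 10 lungs Dbp and Bmal1 levels were opposed, with a Pearson r of -0.938 and a Spearman rho of -0.964 (n = 10, permutation p = 2e-05 for both, the smallest that 100000 resamples can give, 1 relation computed). Both genes were added after their values were seen. Permutation also treats the lungs as exchangeable, although they share the replicate order described below, so these p-values are descriptions only. Without the 2 lungs farthest from the median Dbp level r was -0.915, and it was -0.969 within the 5 Air and -0.873 within the 5 PEP lungs, too few for a test. The spread of Dbp within the Air group, from 9.25 to 11, was wider than the difference between the group means. This spread followed the replicate number in both groups, with Dbp rising and Bmal1 falling from replicate 1 to 5, apart from a tie of Dbp at 11.1. Every PEP lung was above the same-numbered Air lung in Dbp and below it in Bmal1. The labels do not say whether the numbers mark pairs. With the number as a block Dbp was at 0.60 ± 0.22 (limma adjusted p = 0.98). The hour at which each lung was taken is not given in the sources used here, and its part in these differences was not tested.

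**Figure D2:**
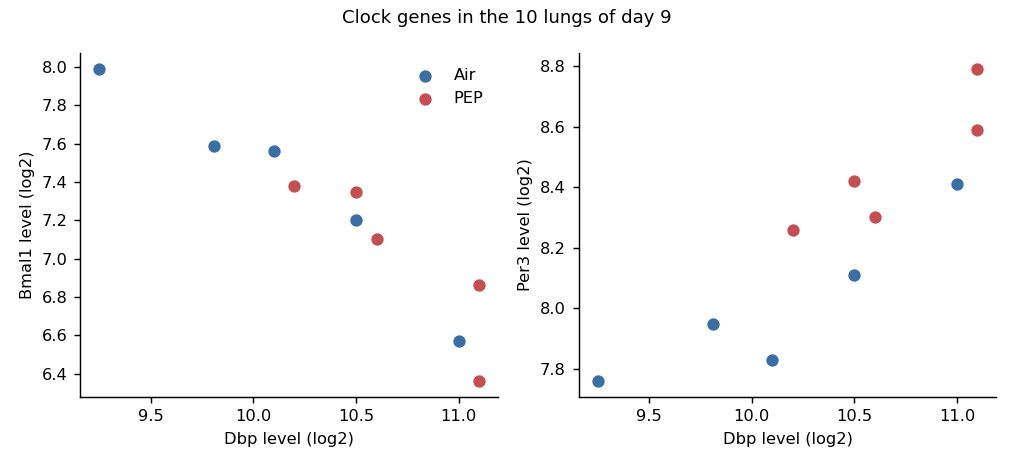
Level of Bmal1 (left) and Per3 (right) against that of Dbp in the 10 lungs of day 9, all in log2, with Air lungs in blue and PEP lungs in red. Bmal1 falls from 7.99 to 6.36 as Dbp goes from 9.25 to 11.1, in lungs of both groups.

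Genes with the smallest p at day 9 came from no single list. Zfp623, a zinc finger gene, had the widest gap between groups of all tested genes that were lower. Its levels were 6.41, 6.55, 6.61, 6.51 and 6.23 in Air and 5.58, 5.78, 5.80, 5.96 and 5.96 in PEP lungs, so that 0.27 separated the lowest Air from the highest PEP lung. The difference was -0.66 ± 0.16 (1.58-fold, adjusted p = 0.421). Stox1, a winged helix transcription factor gene, was at 6.33, 6.33, 6.29, 6.07 and 6.10 in Air and 5.68, 5.51, 5.18, 5.71 and 6.05 in PEP lungs, which did not overlap by a margin of 0.02 (-0.61 ± 0.15, adjusted p = 0.476). Mat2a, the enzyme that makes S-adenosylmethionine outside the liver, was the brightest of these genes. It stood at 9.83, 9.96, 9.56, 9.72 and 9.35 in Air and 8.75, 9.09, 9.47, 9.22 and 9.46 in PEP lungs (-0.53 ± 0.14, adjusted p = 0.476).

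Further genes with lower levels in PEP lungs were of varied function. Esrrb, an orphan nuclear receptor, was dim, at 4.08, 4.33, 4.15, 4.82 and 4.52 in Air and 3.20, 3.27, 4.24, 3.36 and 3.6 in PEP lungs (-0.89 ± 0.24, adjusted p = 0.476). PEP replicate 3 alone reached the Air range. Chrnb1, a subunit of the muscle acetylcholine receptor, had groups that did not overlap, from 4.40 to 4.78 in Air and from 3.78 to 4.30 in PEP lungs (-0.57 ± 0.15). Ficd, which modifies the chaperone BiP in the endoplasmic reticulum, was at -0.52 ± 0.14, Styk1, a membrane kinase gene, at -0.60 ± 0.17, and Eid2, which encodes an inhibitor of differentiation, at -0.59 ± 0.17. Prelid2 was at -0.61 ± 0.17, Pianp at -0.71 ± 0.25, Art4, the Dombrock blood group gene, at -0.66 ± 0.28, and Vpreb1a, a surrogate light chain gene of early B cells, at -0.66 ± 0.30. Sfrp2, a secreted antagonist of Wnt signals made by fibroblasts, ranged from 7.07 to 8.14 in Air and from 6.44 to 7.44 in PEP lungs (-0.64 ± 0.28, adjusted p = 0.924). Slc28a3, a nucleoside transporter, and Prr5, a subunit of the kinase complex mTORC2, were lower in all PEP lungs than in any Air lung, at -0.39 ± 0.16 and -0.45 ± 0.14. Fam171b at -0.43 ± 0.16, Gfod2 at -0.38 ± 0.16 and Slco1a6, an organic anion transporter gene near background, at -0.41 ± 0.14 did not overlap either.

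Among genes higher in PEP lungs, the histone H4 gene Hist1h4m was the brightest beyond 1.5-fold with an unadjusted p below 0.05. Its levels were 8.55, 8.92, 8.55, 8.72 and 8.93 in Air and 9.68, 9.39, 9.00, 9.49 and 9.17 in PEP lungs, which did not overlap (0.63 ± 0.16, 1.54-fold, adjusted p = 0.476). The other replication histones tested were Hist1h2ac at 0.35 ± 0.20 and Hist1h2bd at 0.29 ± 0.23, so all 3 were positive. Both were dim, with levels of 3.67 to 4.57 and 3.94 to 5.36 over both groups. Of the 20 listed histone genes 16 were not named here, and 1 did not vary enough to be tested. Histone H4 genes are nearly identical copies, so a probe set may read several of them. The 9 tested proliferation genes had a median of 0.03, with 6 positive and 0 at an unadjusted p below 0.05. Adam34l had the smallest p of all. It was near background at 2.28, 2.65, 2.62, 2.55 and 2.74 in Air, and at 3.63, 3.94, 4.10, 2.47 and 3.26 in PEP lungs, of which replicate 4 was no higher than the Air lungs (0.93 ± 0.21, adjusted p = 0.421). Without PEP replicate 4 it became the single gene called, at 1.17 ± 0.20 (adjusted p = 0.00494).

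Eci2, an enoyl-CoA isomerase of fatty acid oxidation, was at 8.49, 8.73, 8.52, 8.61 and 8.62 in Air and 8.90, 9.02, 8.94, 8.82 and 8.82 in PEP lungs (0.30 ± 0.13, adjusted p = 0.889). The groups did not overlap although the difference was 1.23-fold. Ttyh1, a chloride channel family gene, also did not overlap, from 5.02 to 5.29 in Air and from 5.40 to 5.84 in PEP lungs (0.35 ± 0.15). Taar9, a trace amine receptor, Pgk2, the phosphoglycerate kinase of sperm, Lim2, a lens membrane protein, and Nkx1-1, a homeobox gene, did not overlap either, at levels between 2.66 and 4.19 that are close to background. Slc2a6, a glucose transporter family gene, was at 0.63 ± 0.25, Oprd1, the delta opioid receptor, at 0.61 ± 0.19, and Lrfn4 at 0.41 ± 0.13, all with overlapping groups.

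**Figure D3:**
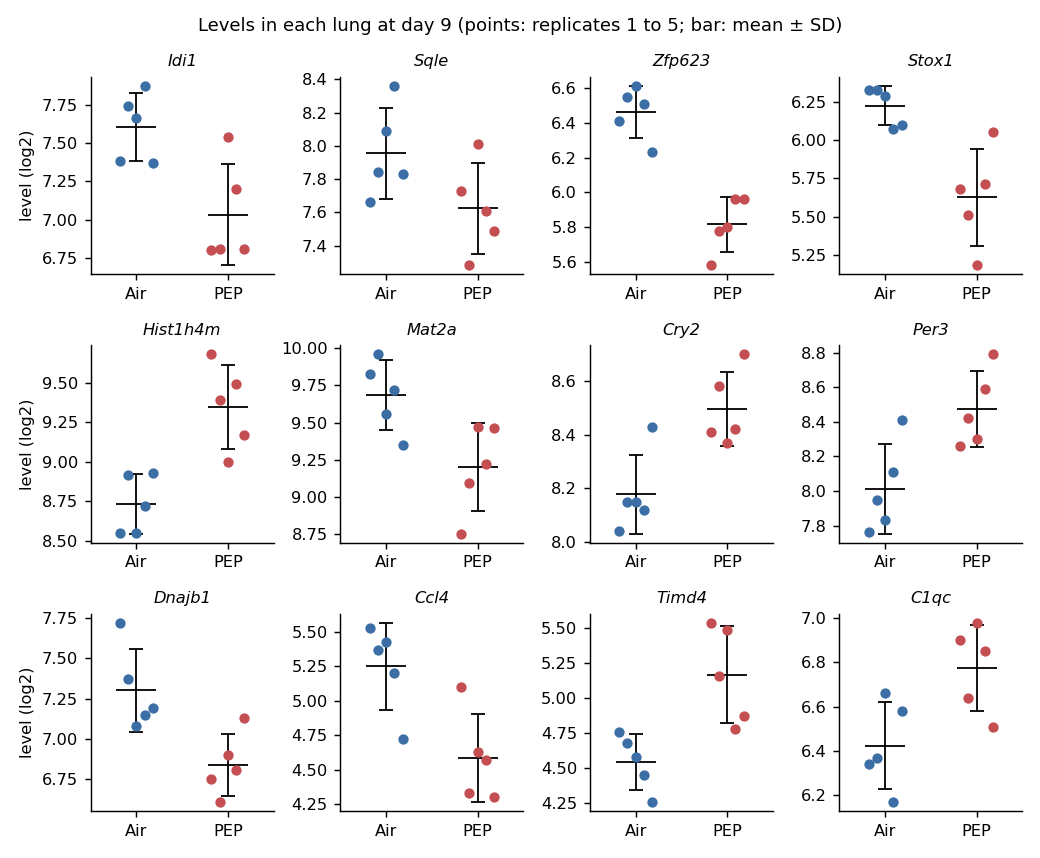
Log2 level of 12 genes in each day-9 lung, with Air lungs in blue and PEP lungs in red, points in the order of replicates 1 to 5 and black bars for the mean ± SD of 5 lungs. Groups of Zfp623, Stox1, Hist1h4m and Timd4 do not overlap, and the other 8 genes share part of their range.

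Leukocyte genes split by gene rather than by list. Of 21 tested chemokines 15 were negative, 1 was higher and 1 lower at an unadjusted p below 0.05, and the median was -0.07. Ccl4, a chemokine of macrophages, T and natural killer (NK) cells, was at 5.53, 5.37, 5.43, 5.20 and 4.72 in Air and 5.10, 4.33, 4.63, 4.57 and 4.30 in PEP lungs. All 5 PEP lungs were below the Air mean (-0.65 ± 0.22, 1.57-fold, adjusted p = 0.889). Ccl2, which attracts monocytes, was at 6.84, 6.74, 7.17, 6.98 and 7.03 in Air and 7.09, 7.97, 7.45, 7.48 and 6.87 in PEP lungs, where replicate 2 was highest (0.45 ± 0.19, adjusted p = 0.889). Without that lung the difference was 0.28. Ccl5 was at -0.33 ± 0.18 and the interferon-gamma induced Cxcl9 at -0.55 ± 0.28.

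NK and cytotoxic genes went both ways. Of 13 tested 8 were negative, 2 of them at an unadjusted p below 0.05, and 5 positive, with a median of -0.10. The largest difference of the list was positive, that of Sh2d1b, an adaptor of NK cell receptors, at 0.62 ± 0.36 (adjusted p = 0.947). Tbx21, the transcription factor T-bet, ranged from 5.59 to 6.34 in Air and from 4.84 to 5.84 in PEP lungs (-0.46 ± 0.21, adjusted p = 0.924). Gzmk, a granzyme, was at 7.12, 7.42, 7.31, 7.05 and 6.94 in Air and 6.95, 6.88, 6.42, 6.71 and 6.88 in PEP lungs, groups that overlapped by 0.01 (-0.40 ± 0.20). Gzma and Gzmb were at -0.38 ± 0.20 and -0.55 ± 0.31. In whole lung, fewer cells of a type and less RNA per cell cannot be told apart. The mean of the 3 NK cell markers was 6.37 to 6.75 in Air and 6.15 to 6.87 in PEP lungs, and 4 T cell markers had means of 6.47 to 6.83 and 6.32 to 6.87, with 0 of these markers at an unadjusted p below 0.05. Cd8a, the coreceptor of cytotoxic T cells, was at -0.28 ± 0.17, with its lowest level, 6.55, in PEP replicate 3.

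Macrophage genes had no common direction, with 7 of 16 tested members positive and a median of -0.03. Timd4, a receptor by which resident macrophages take up dying cells, was at 4.76, 4.68, 4.58, 4.45 and 4.26 in Air and 5.54, 5.16, 5.49, 4.78 and 4.87 in PEP lungs. The groups were separated by 0.02 (0.63 ± 0.21, 1.55-fold, adjusted p = 0.889). Trem2, a lipid-sensing receptor of macrophages, was at 0.43 ± 0.21, whereas Siglec1 was at -0.25 ± 0.17 and Fabp4, a fatty acid binding protein of alveolar macrophages and adipocytes, at -0.49 ± 0.31. The means of 4 macrophage markers ranged from 6.20 to 6.80 in Air and from 5.91 to 6.61 in PEP lungs. Of 7 tested complement genes 6 were positive with a median of 0.23. C1qc, a chain of the first complement component, was at 6.34, 6.37, 6.66, 6.17 and 6.58 in Air and 6.90, 6.64, 6.98, 6.85 and 6.51 in PEP lungs (0.38 ± 0.16, adjusted p = 0.889), while C1qb was at 0.18 ± 0.17 and C3 at 0.28 ± 0.22.

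B cell genes likewise went both ways. Fcrla, a B cell Fc receptor homologue, was at 0.32 ± 0.16 and Fcrl2 at 0.51 ± 0.30, whereas Cxcr5, which guides B cells into follicles, was at -0.41 ± 0.19. Mzb1, a chaperone of antibody-secreting cells, was at 6.14, 5.32, 5.37, 5.45 and 5.49 in Air and 5.66, 5.96, 6.11, 6.03 and 6.36 in PEP lungs (0.45 ± 0.20, adjusted p = 0.924). Air replicate 1 was the 1 control lung within the PEP range. Of 8 tested mast cell genes 7 were positive with a median of 0.27, yet 0 had an unadjusted p below 0.05. Neutrophil, cytokine and interferon-stimulated genes had medians of -0.02, 0.07 and -0.01 over 11, 11 and 12 tested members, again with 0 at an unadjusted p below 0.05. Il1a and Il6, a pair of inflammatory cytokines, were at 0.37 ± 0.27 and 0.07 ± 0.18. Hba-a1, a globin gene of red cells, ranged from 8.50 to 8.87 in Air and from 8.11 to 8.47 in PEP lungs (-0.29 ± 0.13).

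Heat shock and cold-inducible genes were negative in 5 of 6 tested members, with a median of -0.25. Dnajb1, the co-chaperone that is induced with HSP70, was at 7.72, 7.37, 7.08, 7.15 and 7.19 in Air and 6.75, 6.61, 6.90, 6.81 and 7.13 in PEP lungs (-0.48 ± 0.16, adjusted p = 0.821). Cirbp, an RNA-binding protein induced by cold, was at -0.33 ± 0.15, or -0.20 without PEP replicate 2. Air replicate 1 held the highest Dnajb1 value and the highest Hspa1b value, 5.86 against 4.38 to 4.80 in the other Air lungs, and without it the list median was -0.09.

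Targets of the aryl hydrocarbon receptor and of NRF2 showed no difference beyond their spread. Of 5 tested aryl hydrocarbon receptor targets 4 were negative with a median of -0.10, and of 8 tested NRF2 genes 6 were positive with a median of 0.05. In neither list did a member have an unadjusted p below 0.05. Cyp1a1, the classical target, was at 6.09, 6.25, 5.16, 5.35 and 6.10 in Air and 4.48, 4.15, 5.83, 9.15 and 4.74 in PEP lungs. A single PEP lung, replicate 4, was thus above all Air lungs and 3 PEP lungs were below them (-0.15 ± 1.12, 95% interval -2.41 to 2.11). Over all 50 lungs 12 were above 8. They were 1, 2 and 1 Air lungs of days 1, 5 and 21, and 3, 1 and 4 PEP lungs of days 1, 9 and 21. Cyp1b1, a related monooxygenase, was at -0.27 ± 0.23 and Aldh3a1 at -0.10 ± 0.21, and in PEP replicate 4 they stood at 5.76 and 4.88, inside and below the Air ranges. Nqo1, Hmox1 and Gpx2, enzymes of the NRF2 response, were at 0.04 ± 0.22, 0.11 ± 0.13 and 0.17 ± 0.15. Their 95% intervals reached 0.48, 0.37 and 0.47, so larger rises of the group mean lay outside them.

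The study also measured linoleic acid and related lipids in serum. Genes of eicosanoid and linoleic acid metabolism had a median of 0.02 over 11 tested members. Alox15, the arachidonate 15-lipoxygenase, was at 7.97, 7.26, 8.06, 7.46 and 7.67 in Air and 6.82, 6.90, 7.42, 7.41 and 7.06 in PEP lungs, with every PEP lung below the Air mean (-0.54 ± 0.24, adjusted p = 0.924). Alox5ap, the protein that presents arachidonic acid to 5-lipoxygenase, was at 0.24 ± 0.13. Histamine and histidine genes had a median of -0.000771 over 6 tested members, with differences between -0.05 and 0.05.

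**Figure D4:**
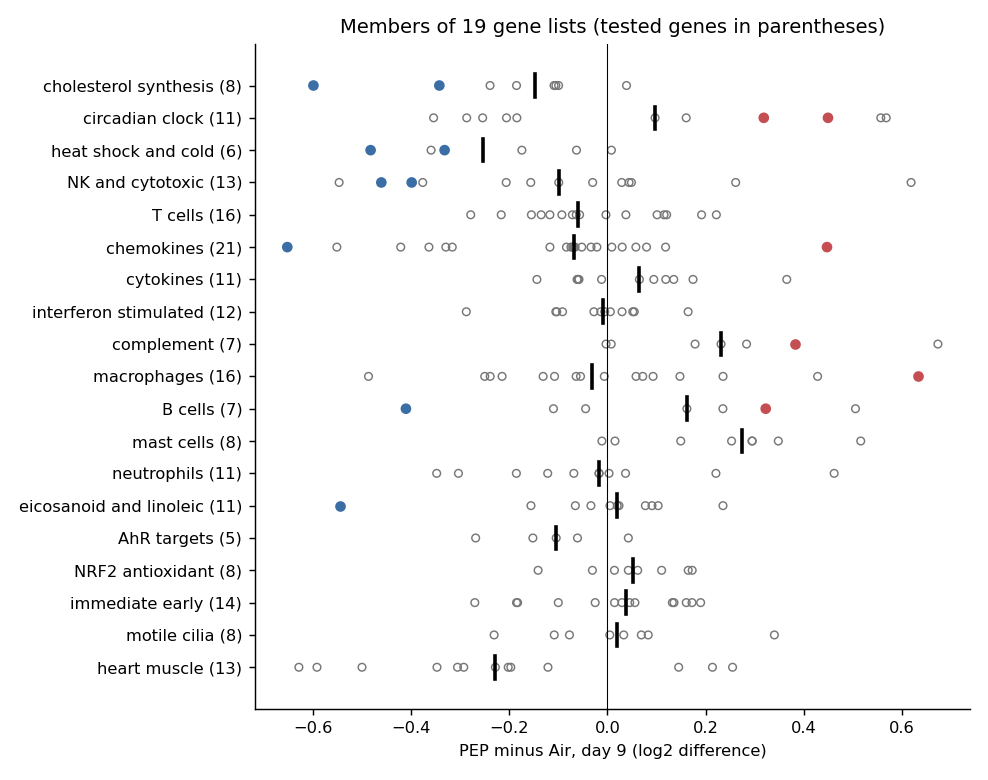
PEP minus Air log2 difference (x axis) of every tested member of 19 gene lists (y axis, number tested in parentheses). Filled points have an unadjusted p below 0.05, red for PEP higher and blue for PEP lower, open points do not, and black bars are list medians, which run from -0.25 for heat shock to 0.27 for mast cell genes.

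Taken over the 313 tested genes of all lists except those of the study's own day-9 tables, 8 were higher and 12 lower at an unadjusted p below 0.05. This made 6.39% in either direction, close to the 5.15% of all tested genes. Genes that the study tabulated for lung at day 9 had been chosen on these same lungs, so their values are descriptions. Several have been given above. Among the rest, Ppef2, a calcium-binding phosphatase of photoreceptors, was at 0.58 ± 0.21, Lpo, lactoperoxidase of airway secretions, at 0.66 ± 0.41 and C5, a complement component, at 0.67 ± 0.88. Tnnc1 and Sln, muscle genes, were at -0.63 ± 0.65 and -0.59 ± 0.81, Naip6, an inflammasome sensor family gene, at -0.63 ± 0.37 and Bpifa1, a secreted airway protein, at -1.11 ± 0.95. Some of the wide errors came with 1 or 2 lungs. Tnnc1 was highest in Air replicate 4 (6.18) and PEP replicate 3 (6.09), against 3.30 to 4.86 in the others. Bpifa1 was likewise highest in Air replicate 4 (7.29) and PEP replicate 3 (5.05), and Scgb3a1, a secretoglobin of airway epithelium, stood at 12 and 11.4 in this pair of lungs but also at 11.3 in Air replicate 5. Heart muscle genes as a list had 10 of 13 members negative and a median of -0.23, with 0 at an unadjusted p below 0.05. Leaving out the lung richest in heart muscle genes from each group, Air replicate 4 and PEP replicate 3, called 0 genes and gave 90 at 1.5-fold, 31 of them among the 50.

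RGD1309362 had the largest difference of all, 1.74 ± 1.28 (adjusted p = 0.981), and took 2 separate levels. It stood at 2.98, 2.77, 8.59, 8.25 and 8.25 in Air and 9.55, 8.42, 3.89, 8.03 and 8.61 in PEP lungs. Over all 50 lungs 10 were at 3.89 or lower and the other 40 at 7.76 or higher, and the low level was found in 2 of 5 Air and 1 of 5 PEP lungs of day 9. The difference in group means therefore depended in part on how many lungs stood at the low level. PEP replicate 1, at 9.55, was also above every other lung of day 9.

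The day-9 differences were then set against those of the other times, which share no lung with them. Across the 8202 tested genes, which are not independent replicates, the Spearman correlation of the day-9 difference was 0.0626 with day 1, 0.0151 with day 5 and -0.00628 with day 21. The effect at day 9 was tested against the mean effect of days 1, 5 and 21, and by limma 0 genes passed (0%). An unadjusted p below 0.05 was found in 495 of the 8202 genes, against 422 (5.15%) for PEP against Air at day 9. The smallest adjusted p of the test between times was 0.481. Prr5 had the smallest p of this test. It was lower in PEP lungs at day 9 but at 0.17 ± 0.13, 0.26 ± 0.14 and 0.34 ± 0.14 at days 1, 5 and 21, a difference between times of -0.70 ± 0.16 (adjusted p = 0.481). Zfp623 lay close to 0 at the other times, at 0.08 ± 0.15, 0.06 ± 0.15 and 0.11 ± 0.15, and differed by -0.75 ± 0.18 (adjusted p = 0.481).

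Stox1 and Ficd behaved like Zfp623, with differences between times of -0.67 ± 0.17 and -0.63 ± 0.16 (adjusted p = 0.511 for both), followed by Eid2 at -0.75 ± 0.20 and the ankyrin repeat gene Ankrd33b at -0.58 ± 0.15. In the other direction Oprd1 differed by 0.79 ± 0.22, Ppef2 by 0.81 ± 0.24 and Lrfn4 by 0.53 ± 0.15. Idi1 was at 0.20 ± 0.16, -0.11 ± 0.17 and -0.14 ± 0.17 at days 1, 5 and 21. Its day-9 difference departed from their mean by -0.58 ± 0.20 (adjusted p = 0.801). In the day-21 rats with an implant, which the test between times leaves out, Idi1 was also lower, at -0.48 ± 0.20. Cd8a was at 0.08 ± 0.16, 0.09 ± 0.17 and 0.68 ± 0.17 at days 1, 5 and 21, and at 0.09 ± 0.20 in the day-21 rats with an implant. Its day-9 value of -0.28 differed from the mean of days 1, 5 and 21 by -0.56 ± 0.20 (adjusted p = 0.801), a mean raised by day 21. Per3, in contrast, was at 0.71 ± 0.20, -0.17 ± 0.22 and 0.26 ± 0.21, so that its day-9 value of 0.45 lay within the range of the other times.

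**Figure D5:**
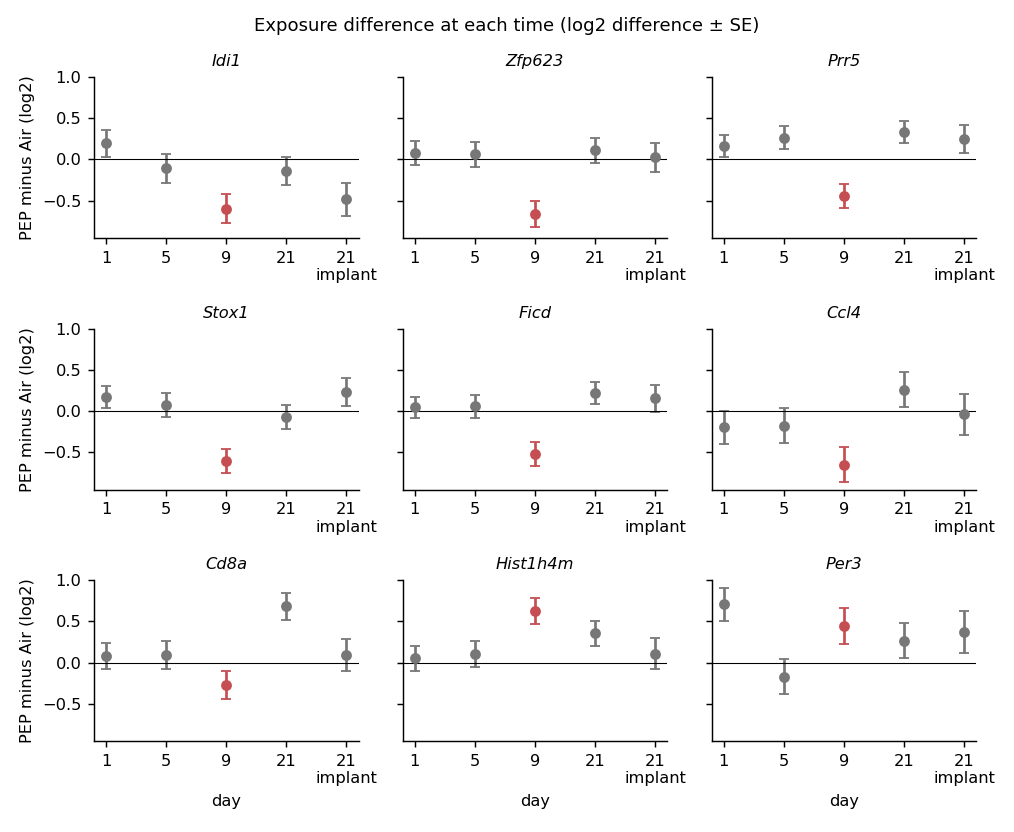
PEP minus Air log2 difference ± SE of 9 genes (y axis) by day (x axis, last point rats with an implant), with day 9 in red. Zfp623, Prr5, Stox1 and Ficd are below 0 at day 9 (from -0.66 to -0.45) and between -0.07 and 0.34 at the other times.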

How the data were processed

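Lung RNA was measured on Affymetrix Rat Gene 2.1 ST arrays, 1 array per lung, and the authors deposited 36685 log2 values for each. Per the submitters' processing notes these log2 values were made with oligo in R 3.4 through RMA (robust multi-array averaging), which corrects background, equalizes quantiles and summarizes probes, and limma was used. Quantile normalization removes a shift shared by most genes, and background compresses folds of dim genes. The table held 0 columns of no sample, and 0 pairs of arrays were identical.

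Names came from GEO's platform annotation. A single gene was given for 14824 sets, several for 829, and 21032 were not named here. Symbols were updated through RefSeq (14670 sets matched), which left 14557 genes. For the 234 genes with more than 1 set the brightest was used. Genes with a variance of at least 0.05 over the 50 arrays were tested, 8202 in all.

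The test was limma 3.58.1 (R 4.3.3) in a model of 10 group means over all 50 arrays with gene-by-gene array weights (0.59 to 1.71), so that all groups share 1 estimate of the spread, and with empirical Bayes moderation. Two-sided p-values received Benjamini-Hochberg adjustment across the whole set of tested genes. Values are log2 differences (PEP minus Air) ± SE, and levels are log2 values. The script was tested on simulated data. Correlations were tested by permutation in scipy, and figures drawn with matplotlib.

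The alternatives were centring on array medians, equal array weights, no variance filter, no genes with a mean under 5, the mean over probe sets, robust moderation with a trend, a replicate block, day-9 arrays only, and leaving out each day-9 lung. A clock covariate (Dbp minus Bmal1) and leaving out the lung richest in heart muscle genes per group were chosen after seeing the data.

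The members and gene lists were chosen with earlier results of these data known. Named genes were drawn from the 12 highest and 12 lowest at an unadjusted p below 0.05. Further sources were the 8 widest gaps between groups in each direction and the 4 smallest p of each list. All tested cholesterol synthesis members, the study's day-9 genes, and the 6 smallest p in each direction of the test between times were added. Pseudogenes, LOC and olfactory receptor genes were counted and not described. Other genes that met this rule, many of them among the 4 smallest p of a list, were also left out of the text. Chrnb1, Mat2a, Sh2d1b, Cyp1a1, Il6, Scgb3a1, RGD1309362 and the clock genes Dbp, Bmal1, Npas2, Nfil3, Bhlhe40 and Cry1 fell outside this rule and were added after their values were seen.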

Additional observations from a re-analysis of the deposited data

Results flagged for a closer look

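For 94 of the genes named in the text, each day-9 group of 5 lungs was examined for a lung far from its neighbours. Dixon's ratio of the gap to the range was used at its critical value of 0.71. This marked 16 of 188 groups. Chance marks about 1 in 20 independent groups, but these genes were named partly for their values in these lungs, so the shares cannot be compared.

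PEP replicate 3 was marked 4 times. It stood high for Bpifa1, at 5.05 against 2.87 to 3.07 in the other PEP lungs, and for the muscle gene Sln, at 7.08 against 4.42 to 5.10. It stood low for Cd8a, at 6.55 against 7.17 to 7.35, and for RGD1309362, at 3.89 against 8.03 to 9.55. PEP replicate 5 was low for Tm7sf2, at 5.71 against 6.24 to 6.35, and for Lim2, at 3.79 against 3.97 to 4, while PEP replicate 1 was high for Il6, at 4.57 against 3.38 to 3.69.

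Air replicate 1 was also marked 4 times, high for Hspa1b at 5.86 against 4.38 to 4.80 and for Mzb1 at 6.14 against 5.32 to 5.49, low for Lim2 at 2.86 against 3.53 to 3.70 and for Lpo at 4.33 against 4.82 to 4.97. Air replicate 4 was high for Dhcr7, at 7 against 6.34 to 6.49, and for Gpx2, at 8.29 against 7.64 to 7.81, and low for Art4, at 5.66 against 6.61 to 7. Air replicate 2 was high for Gzma, at 7.37 against 6.55 to 6.67, and low for Fcrl2, at 4.81 against 5.51 to 5.71.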

How the results depend on the processing

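The count of genes called stayed at 0 under all alternatives except without PEP replicate 4, where it was 1, so leaving out single lungs gave 0 to 1. The count at 1.5-fold, 50, became 29 with dim genes left out (10 higher and 19 lower, 18 of them among the 50), 63 to 93 without single lungs, and 90 without the lung richest in heart muscle genes in each group. Without dim genes the smallest adjusted p was 0.0653. The test between times gave 0 throughout. Over all tested genes same-numbered Air and PEP lungs did not deviate together (correlations -0.102 to 0.0707), so the numbers were not taken as pairs. The levels of Bmal1, however, ranked the 5 lungs in the same order in both groups, as did those of Dbp apart from a tie in PEP lungs. With the replicate number as a block, 0 genes were called, 53 were at 1.5-fold, 0 differed between times, and Per3, Per2 and Dbp were at 0.47 ± 0.15, 0.58 ± 0.21 and 0.60 ± 0.22. Their limma p-values were then 0.00405, 0.0101 and 0.009 unadjusted (0.0463, 0.0609 and 0.104 without the block) and 0.979, 0.98 and 0.98 adjusted. Of the 48 named genes with an unadjusted p below 0.05, 0 changed sign under any alternative, but some moved by over 1.5 times. With the clock covariate Per3 was at 0.17 (and Per2 at 0.21). Without the lungs richest in heart muscle genes Slc2a6, Pianp, Ttyh1 and Art4 were at 0.327, -0.405, 0.221 and -1.05, the first 3 no longer at an unadjusted p below 0.05 by limma. Signs changed in genes near 0 when single lungs were left out, with ranges of -0.184 to 0.0335 in Dhcr7, -0.247 to 0.0185 in Hsd17b7, -0.0242 to 0.141 in Tm7sf2, -0.0471 to 0.203 in Cry1, -1.02 to 0.209 in Cyp1a1, -0.0296 to 0.131 in Nqo1, -0.012 to 0.175 in Hmox1, -0.169 to 0.184 in Il6 and -1.03 to 0.00518 in Sln. Tm7sf2 was at -0.000314 with equal weights, Bmal1, Npas2 and Nqo1 at 0.0766, 0.000714 and -0.0451 with the clock covariate (built from Dbp and Bmal1, so that the value of Bmal1 is set by construction), and C5 at -0.0871 without the lungs richest in heart muscle genes. The cause was not tested.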
